A study of Homo sapiens with 7 samples.

Results

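The genes that encode the subunits of the RNA polymerases I, II and III, with TBP and other general transcription factors, were followed across replicate arrays of bafilomycin A1 treated HCT116 cells. They comprise 39 genes of the 36337 gene names on the array, found by matching the gene symbol of each non-control spot. Of these, 7 encode subunits that several polymerases share, 19 encode subunits of a single polymerase and 13 encode general factors. The 39 genes are represented by 61 probes and 70 spots.

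HCT116 is a diploid human colon carcinoma cell line, here with a histone H2B-GFP fusion. The cells were treated with 10 nM bafilomycin A1, an inhibitor of the vacuolar proton pump that blocks lysosomal acidification and the late steps of autophagy, for 30 h. Expression was measured in 4 biological replicates on 1-colour oligonucleotide arrays, 1 array for each replicate. The study set these cells against untreated HCT116 H2B-GFP cells, which were not analysed here (3 samples), so that every comparison below is between arrays of the same treatment and no test between groups was possible. Serum content is given differently by the sample labels and the methods. All 4 arrays lay on the same slide, so slide did not differ between them and could not be tested as a batch.

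RNA polymerase I transcribes the large ribosomal RNA precursor, polymerase II messenger RNAs, and polymerase III transfer RNAs and other short RNAs. The enzymes are built on a common plan: a pair of large catalytic subunits, an assembly platform, a stalk and a set of small subunits that all of them use. The shared subunits enter all of these enzymes or both polymerases I and III, whereas the others serve only the polymerase they belong to.

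Of the probes that cross an exon junction or have a reading frame free of stop codons, 5 are shown as examples. They are given 5′ to 3′ as on the array and with GRCh37 positions. In the first 4, capitals mark G and C bases, since base composition of the probe varied together with the deviation of replicate 3. The POLR1C and GTF2A1 probes cross an exon junction, so that their coordinates include an intron, and the GTF3C1 probe belongs to the gene with the widest spread. The POLR2F probe is 1 of 6 for this gene, which did not move together. In the POLR2J probe, which also crosses a junction, capitals mark the 26 bases in a row that a probe of POLR2J4 holds as well.
POLR1C, A_23_P70409, chr6:43487873-43488021, plus strand: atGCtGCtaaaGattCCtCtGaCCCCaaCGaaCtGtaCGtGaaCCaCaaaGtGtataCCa
GTF3C1, A_23_P152344, chr16:27473709-27473768, minus strand: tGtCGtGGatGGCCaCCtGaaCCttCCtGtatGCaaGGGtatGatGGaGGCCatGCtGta
GTF2A1, A_23_P65609, chr14:81651911-81658868, minus strand: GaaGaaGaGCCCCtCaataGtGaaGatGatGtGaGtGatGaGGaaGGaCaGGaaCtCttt
POLR2F, A_33_P3318960, chr22:38352789-38352848, plus strand: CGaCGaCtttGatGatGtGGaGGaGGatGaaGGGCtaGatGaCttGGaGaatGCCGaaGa
POLR2J, A_23_P42649, chr7:102114966-102116670, minus strand: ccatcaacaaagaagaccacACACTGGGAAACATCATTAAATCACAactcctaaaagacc

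All 39 genes were detected on all 4 arrays, beside 54.2% of all gene names. Detection required 1 probe or more with a flag well above background, on each array. Of the 61 probes, 57 met this on all 4 arrays. The others were a second probe of POLR1A, a pair of POLR2F probes and 1 probe of RRN3. With every probe of a gene required to be well above background, 36 genes were detected, beside 45.7% of all gene names. The arrays themselves had between 55.6% and 60.4% of their spots well above background and 0 saturated spots. The number of arrays sets the precision of each value.

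Identity of the cells was checked with marker genes. Of 10 markers of a colon epithelial line 9 were detected on all arrays, and VIL1, which encodes villin, on none. Fibroblast markers were detected in 1 of 5 cases (COL1A1), blood cell markers in 3 of 5 (PTPRC, CD3E and CD14) and endothelial markers in 2 of 4 (VWF and CDH5). COL1A2, COL3A1, LUM, HBB, PECAM1 and CLDN5 were well above background on no array. The samples came from a cultured cell line, and detection of a marker probe does not show that another cell type was present.

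Levels below are log2 of the background-subtracted signal relative to the median of the array, with the median taken over the probes of a gene, and they are compared only between arrays for the same gene because probes differ in affinity. Over the 39 genes the SD between arrays had a median of 0.18, beside 0.20 over all detected genes. The highest array lay more than 1.4-fold above the lowest in 16 of 39 genes, beside 43.1% of all detected genes. This fold was chosen because the study uses it for a changed gene. There it applies to the ratio between an aneuploid and a diploid line, here to the highest over the lowest of 4 replicate arrays. The counts are therefore not of genes changed by the study's measure. Dixon's ratio, which marks genes in which a single array lies apart from the rest, exceeded its critical value for 4 arrays in 3 of 39 genes, beside 7.2% of all detected genes. In these 3 measures the polymerase genes lay close to the array as a whole. Without replicate 3 only 3 genes (POLR3B, GTF3C1 and RRN3) spanned more than 1.4-fold, beside 18.6% of all detected genes, and the median SD was 0.11, beside 0.14. After quantile normalization between arrays 3 genes (POLR1C, GTF2A1 and GTF3C1) did so, beside 14.2%, and with the processed signal scaled to the 75th percentile 10 genes, beside 38.1%. None of the genes with an array apart was kept in either setting or with centring over all probes (0 of 39, beside 6.07%, 6.39% and 5.03%).

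**Figure D1:**
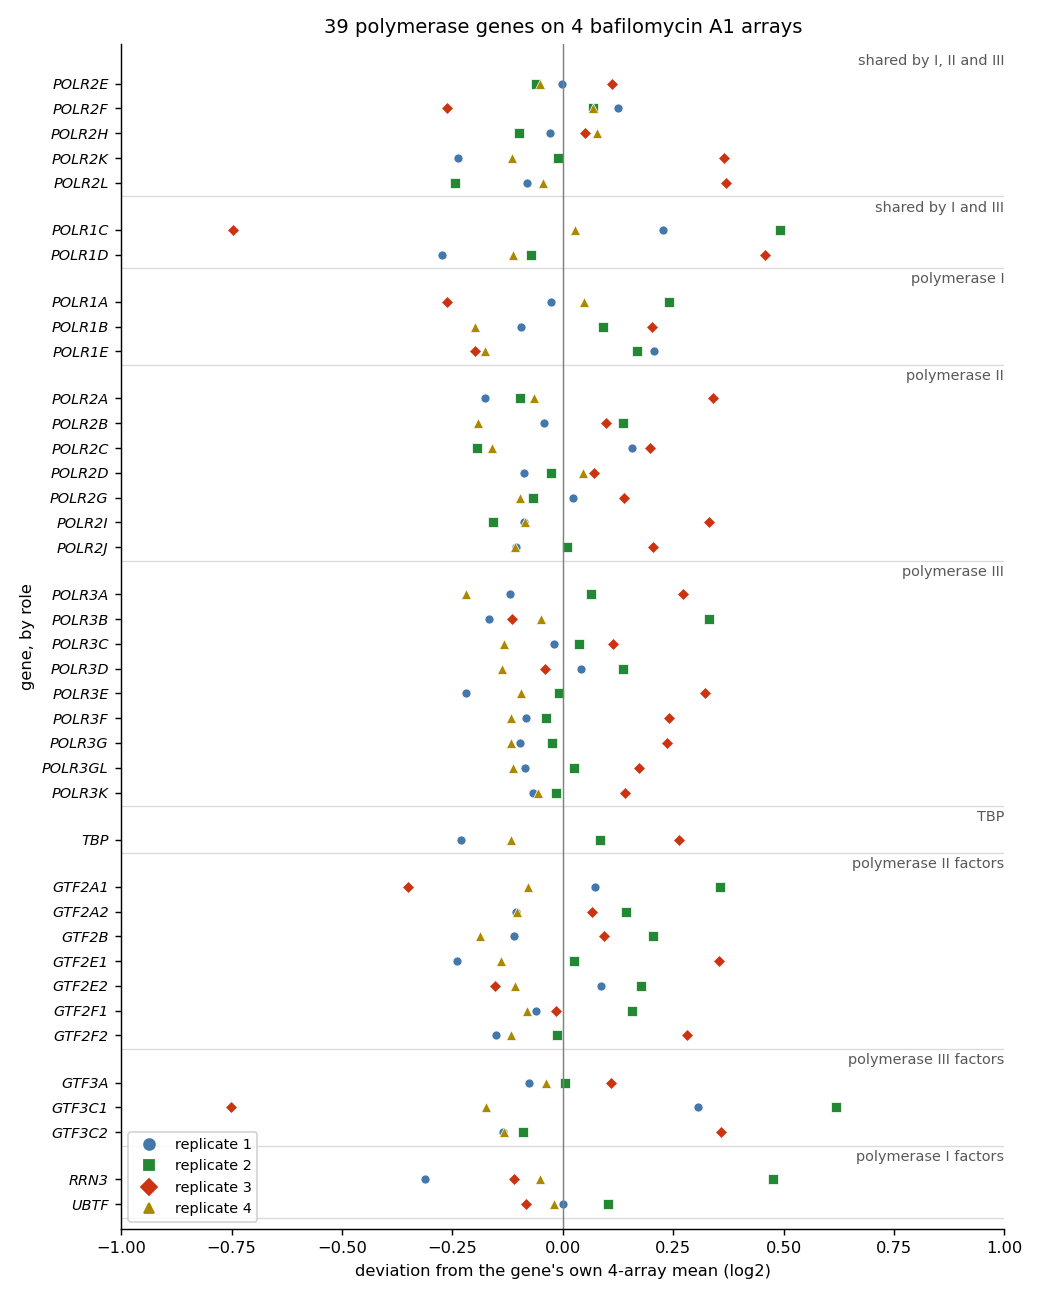
Deviation of each of the 39 genes on each of the 4 bafilomycin A1 arrays from the mean of that gene over the 4 arrays (horizontal axis, log2), with genes grouped by role. Replicate 3 (diamonds) is the highest array in 23 genes but the lowest in 8, beside 48.8% and 23.3% of all detected genes. The 8 include POLR1C and GTF3C1, in which replicate 3 lies 0.75 below the mean.

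The 5 subunits common to all polymerases were POLR2E, POLR2F, POLR2H, POLR2K and POLR2L. POLR2L, a small zinc-binding subunit of the assembly platform, had levels of 9.80, 9.64, 10.25 and 9.84 on replicates 1 to 4. Replicate 3 was the highest and the arrays spanned 1.53-fold (SD 0.26, n = 4). POLR2K, the other small zinc-binding platform subunit, gave 3.70, 3.93, 4.31 and 3.82. Again replicate 3 lay highest, with a 1.52-fold span (SD 0.26), and without it the span was 1.17-fold for POLR2K and 1.15-fold for POLR2L.

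POLR2E, which contacts the incoming DNA in the jaw of the enzyme, was far steadier with 3.86, 3.80, 3.97 and 3.81. Its SD of 0.079 was among the 5 smallest of the 39 genes. POLR2H, a small structural subunit, measured 6.39, 6.31, 6.46 and 6.49, with an SD of 0.080. That small SD hid a disagreement of its probes. The A_33_P3396459 probe deviated from its own mean by 0.13, -0.27, -0.08 and 0.21, and A_23_P29803 by -0.18, 0.07, 0.18 and -0.06, opposite in sign on every array.

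POLR2F, a small subunit that helps to hold the largest subunit in place, had levels of 1.08, 1.02, 0.69 and 1.02. Replicate 3 stood apart on the low side (Dixon's ratio 0.855), while the remaining arrays spanned 1.04-fold. The value is a median over 6 probes whose targets are up to 69255 bases apart on chromosome 22, and it fell between A_24_P417007 and A_33_P3371460. The A_33_P3371460 probe, designed to another transcript than the rest of the detected probes, dropped on replicate 3 by 0.41 from its mean. In contrast, the junction probe A_23_P80321 rose there by 0.36 above its mean, with signals of 19375, 18410, 26511 and 18908, and the printed probe A_33_P3318960 gave 7553, 7752, 7760 and 6665. With only those of its probes that were well above background on all arrays, POLR2F spanned 1.03-fold and no array stood apart.

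POLR1C and POLR1D form the platform heterodimer that polymerases I and III have in common. Both spanned more than 1.4-fold, in opposite directions. POLR1C measured 4.80, 5.07, 3.83 and 4.60, a 2.36-fold span with the second largest SD of all 39 genes (0.53). Replicate 3 was lowest, and without it the span was 1.38-fold. The gene value equals that of the printed junction probe A_23_P70409, with signals of 2154, 2350, 996 and 1539. A_33_P3339103, which targets the same transcript 732 bases further along, stayed at 4620, 4634, 4248 and 3720, a 1.13-fold span of its levels. The third probe, A_33_P3339109, read 445, 303, 312 and 321 and was highest on replicate 1. The spread of POLR1C was thus that of its junction probe. Its span remained 2.28-fold with the processed signal and 2.44-fold after quantile normalization.

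POLR1D went the other way with 4.37, 4.58, 5.10 and 4.53 (SD 0.32, a 1.66-fold span). Replicate 3 was highest for both of its probes. A_23_P36928 gave signals of 10882, 10898, 12890 and 8940, and A_23_P409541, designed to another transcript, gave 236, 257, 452 and 241. The levels of these probes spanned 1.30-fold and 2.11-fold. Without replicate 3 POLR1D spanned 1.15-fold.

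Among the subunits particular to polymerase I, the largest, POLR1A, had levels of 0.64, 0.91, 0.41 and 0.72 (SD 0.21). This combines a detected and an undetected probe. A_33_P3610123 was steady at signals of 1363, 1266, 1289 and 1157, a 1.04-fold span after centring, whereas A_33_P3320533 read 10.7, 13.7, 6.75 and 9.42 and was well above background on no array. POLR1B, the second large subunit, measured 1.13, 1.31, 1.43 and 1.02 (SD 0.18), highest on replicate 3 and lowest on replicate 4. POLR1E, a subunit that resembles initiation factors of polymerase II, had a mean of 2.13 (SD 0.22), and replicates 1 and 2 lay above replicates 3 and 4 for both of its probes.

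For polymerase II, POLR2A, the largest subunit that carries the repetitive C-terminal domain, measured 7.46, 7.54, 7.98 and 7.57. Replicate 3 was highest and the arrays spanned 1.43-fold (SD 0.23), or 1.08-fold without it. POLR2B, the second large subunit, gave 5.85, 6.03, 5.99 and 5.70 (SD 0.15), with replicate 4 lowest. POLR2I, a zinc-ribbon subunit with a role in start site choice and proofreading, read 6.59, 6.51, 7.01 and 6.59. Replicate 3 stood apart on the high side (Dixon's ratio 0.851), and the others spanned 1.05-fold. This call was lost with the processed signal (0.446) and after quantile normalization (0.504).

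POLR2D, which forms the stalk with POLR2G, had the smallest SD of the 39 genes (0.072), at 1.36, 1.43, 1.52 and 1.50. As in POLR2H, its probes moved against each other on every array. A_33_P3351811, with signals of 39.6, 33.1, 31.7 and 36.1, deviated by 0.04, -0.08, -0.15 and 0.19, while A_23_P209778 deviated by -0.22, 0.03, 0.29 and -0.10. The single probes had SDs of 0.15 and 0.22. POLR2G had a mean of 7.05 (SD 0.11), POLR2C, an alpha-like platform subunit, 4.78 (SD 0.21), and its partner POLR2J 6.12 (SD 0.15). The POLR2J probes moved together, with an SD of 0.047 for their difference. A_23_P42649 shares the printed run with a POLR2J4 probe. It also shares at least 20 bases in a row with a probe named only by an Ensembl transcript. Transcripts other than that of POLR2J may therefore contribute to its signal. Both POLR2J4 probes were detected on all 4 arrays.

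In polymerase III, the large subunit POLR3A measured 4.57, 4.75, 4.96 and 4.47 (SD 0.22), with replicate 3 highest and a 1.41-fold span. POLR3B, its catalytic partner, gave 1.54, 2.04, 1.59 and 1.66 (SD 0.23). Here replicate 2 was highest, and without it the span went from 1.41-fold to 1.09-fold. POLR3G and POLR3GL are alternative paralogs of the subcomplex that opens DNA at the start site, the former best known from undifferentiated and proliferating cells. Both were detected with both of their probes. POLR3G had levels of 3.27, 3.34, 3.60 and 3.25 (SD 0.16).

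POLR3GL gave 5.19, 5.30, 5.45 and 5.16 (SD 0.13). The paralogs had the same order of arrays, with replicate 3 highest, then 2, 1 and 4. This order was not particular to them. It was also that of the mean over all detected genes and of POLR1B, POLR2J, POLR3A, POLR3C and POLR3F. The 2 POLR3GL probes lie 194 bases apart on the same transcript and had the closest agreement of all 22 probe pairs, with an SD of 0.036 for their difference. POLR3C and POLR3F, which belong to the same subcomplex, had means of 4.23 (SD 0.10) and 1.80 (SD 0.16). POLR3D and POLR3E, a pair that resembles the factor TFIIF of polymerase II, had means of 3.24 (SD 0.12) and 4.58 (SD 0.23), and POLR3K, needed for RNA cleavage and termination, 4.56 (SD 0.096). All but POLR3B and POLR3D of these 9 genes were highest on replicate 3, beside 48.8% of all detected genes. After quantile normalization 5 of the 9 were, beside 38.3%.

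TBP, the TATA-binding protein that takes part in initiation by all of these polymerases, measured 2.30, 2.62, 2.80 and 2.42 (SD 0.22, 1.41-fold). Its probe is printed 10 times per array, the only probe of the 61 with several spots. The log2 signals of these spots had SDs of 0.23, 0.23, 0.10 and 0.20 within replicates 1 to 4, where 2 outlying spots had been left out on replicate 3. The median spot signals were 365, 405, 483 and 320. The level averages over these spots, and the arrays differed in it by an SD of 0.22.

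GTF2A1, the large chain precursor of the factor TFIIA, was among the genes with the widest spread, at 3.10, 3.38, 2.68 and 2.95 (SD 0.30, 1.63-fold). Replicate 2 was highest and replicate 3 lowest, and the span was 1.64-fold with the processed signal and 1.57-fold after quantile normalization. GTF2A2, the small TFIIA chain, had a mean of 6.85 (SD 0.13). GTF2B, which positions polymerase II at the promoter, averaged 4.86 (SD 0.18). The TFIIE chains GTF2E1 and GTF2E2 had means of 4.35 (SD 0.26) and 4.26 (SD 0.16), with replicate 3 the highest array for the former and the lowest for the latter. The TFIIF chains GTF2F1 and GTF2F2 averaged 6.05 (SD 0.11) and 5.94 (SD 0.20).

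The widest spread of all 39 genes was that of GTF3C1, the largest subunit of the promoter-binding factor TFIIIC of polymerase III. Its probe gave signals of 239, 269, 104 and 141 and levels of 1.63, 1.94, 0.57 and 1.15. Replicate 3 was lowest and replicate 2 highest, a 2.58-fold span (SD 0.60), and 97.0% of all detected genes had a smaller SD. With the processed signal the span was 2.63-fold and after quantile normalization 1.92-fold. Without replicate 3 it was 1.73-fold. GTF3C2, another TFIIIC subunit, moved in the opposite direction on replicate 3, with 5.90, 5.94, 6.39 and 5.90. This array stood apart on the high side (Dixon's ratio 0.911), and the others spanned 1.03-fold. The call was lost with the processed signal (0.624) and after quantile normalization (0.781). GTF3A, the zinc finger protein that directs polymerase III to the gene of the smallest ribosomal RNA, was steady with 7.55, 7.63, 7.73 and 7.58 (SD 0.080).

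Of the polymerase I factors, UBTF, an HMG-box protein that keeps ribosomal DNA open, had levels of 1.84, 1.94, 1.76 and 1.82. Its SD of 0.077 was the second smallest of the 39 genes. RRN3, which links polymerase I to its promoter-bound factors, gave -0.08, 0.71, 0.12 and 0.18 (SD 0.34, 1.73-fold). Replicate 2 was highest, and without it the span was 1.20-fold. The value followed probe A_33_P3362770, with signals of 73.0, 114, 76.3 and 71.8. A_24_P382017, further along the same transcript, instead read 893, 955, 1456 and 809 and was highest on replicate 3, and the junction probe A_24_P590560 was well above background only on replicates 1 and 2. RRN3 has pseudogene copies, whose transcripts cannot be separated from it here.

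**Figure D2:**
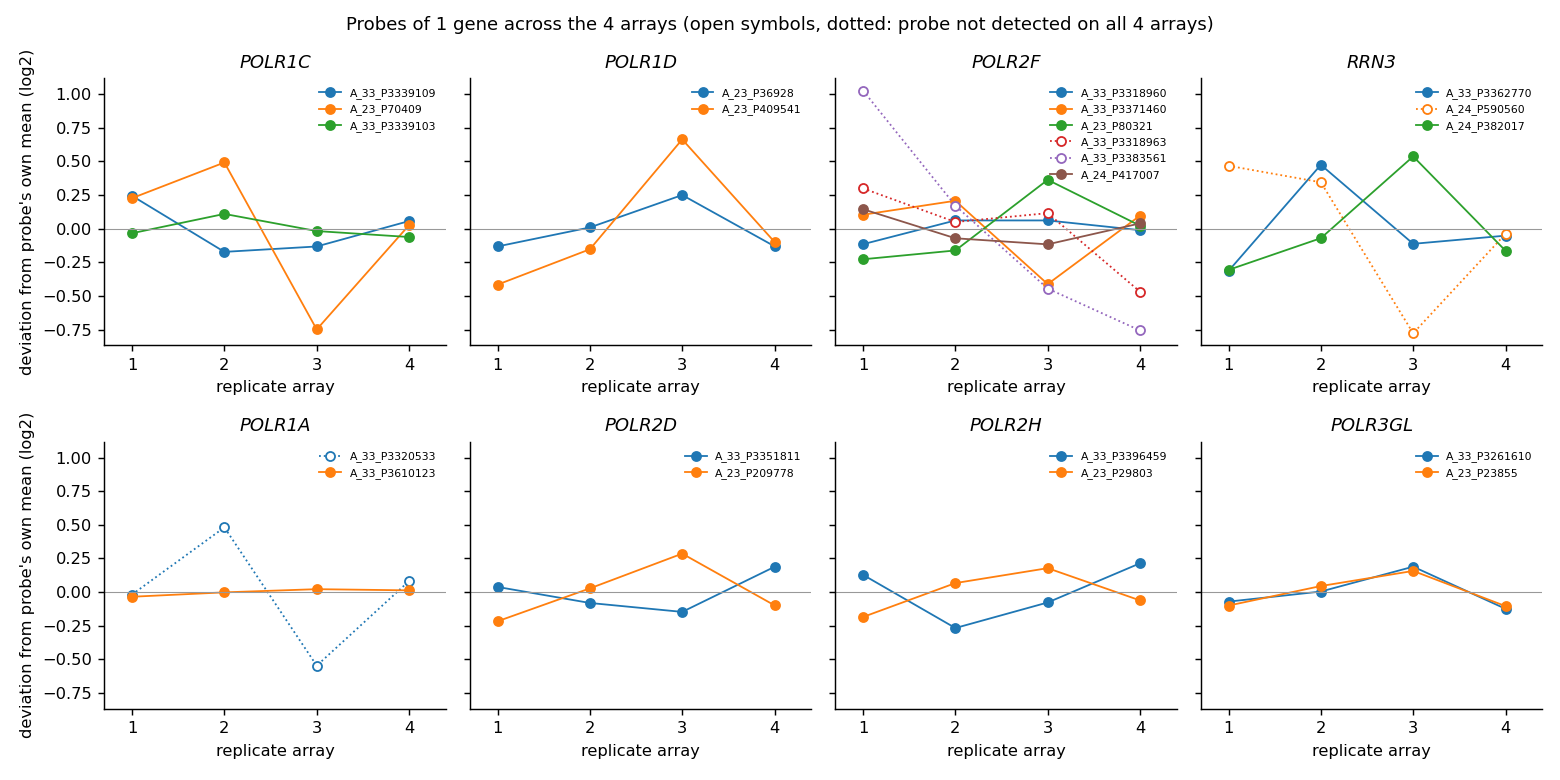
Deviation of each probe from its own mean over the 4 arrays (vertical axis, log2) against the replicate array, for 8 genes with several probes. The POLR1C probe A_23_P70409 falls by 0.75 on replicate 3 while A_33_P3339103 stays within 0.11 of its mean, the POLR2D and POLR2H probes run against each other, and the POLR3GL probes overlap.

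Taking all probes detected on every array, 15 genes had several, which gave 22 pairs of probes. The probes of a pair deviated in the same direction on replicate 3 in 13 of 22 pairs, and in 11, 9 and 15 pairs on replicates 1, 2 and 4. The same count was not made over all probe pairs of the array, so how usual such agreement is remains unknown here. Some pairs share a probe, as in POLR2F and POLR1C, and are not independent. The largest disagreement was between the POLR2F probes A_33_P3371460 and A_23_P80321, whose difference had an SD of 0.53. It was followed by the pair of POLR1C probes A_33_P3339109 and A_23_P70409 (0.52).

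Shared and polymerase-specific subunits were then compared by the mean of their deviations on each array. The 7 shared subunits averaged -0.038, 0.011, 0.049 and -0.022 on replicates 1 to 4, an SD of 0.039 between arrays. The 19 specific subunits averaged -0.055, 0.032, 0.13 and -0.11 (SD 0.10). All detected genes averaged -0.006, 0.041, 0.063 and -0.098. The difference between shared and specific subunits deviated by 0.017, -0.021, -0.081 and 0.085 from its mean, an SD of 0.070 or a 1.12-fold range. With 1 condition this difference could not be tested. Which of the group means had the smaller SD depended on scaling. With the processed signal the SD was 0.064 for shared and 0.039 for specific subunits. After quantile normalization it was 0.044 for shared and 0.014 for specific subunits.

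Single shared subunits had a median SD of 0.26, specific subunits 0.16 and general factors 0.20. On replicate 3 the values of POLR1C and POLR2F lay below their means and those of POLR1D, POLR2K and POLR2L above. These deviations offset each other in the mean of the shared subunits. The fall of POLR1C was that of its junction probe, and its other probes deviated by -0.13 and -0.017 there. Without replicate 3 the SD of the mean of the shared subunits was 0.025. When the mean instead of the median over probes was taken, the shared subunits averaged 0.14 on replicate 3, and the SD of their mean was 0.094. Replicate 3 then stood apart on the high side (Dixon's ratio 0.893), whereas the ratio was 0.436 with the median over probes. By polymerase, the 7 subunits of polymerase II averaged -0.046, -0.056, 0.20 and -0.095, with replicate 3 apart on the high side (Dixon's ratio 0.832). With the processed signal this ratio was 0.458 and after quantile normalization 0.283. The 9 subunits of polymerase III averaged -0.091, 0.056, 0.15 and -0.12, and the 3 of polymerase I 0.028, 0.17, -0.086 and -0.11. With only probes well above background on all arrays, the polymerase I subunits averaged 0.026, 0.085, 0.009 and -0.12. The 13 general factors averaged -0.073, 0.17, 0.005 and -0.10, highest on replicate 2.

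**Figure D3:**
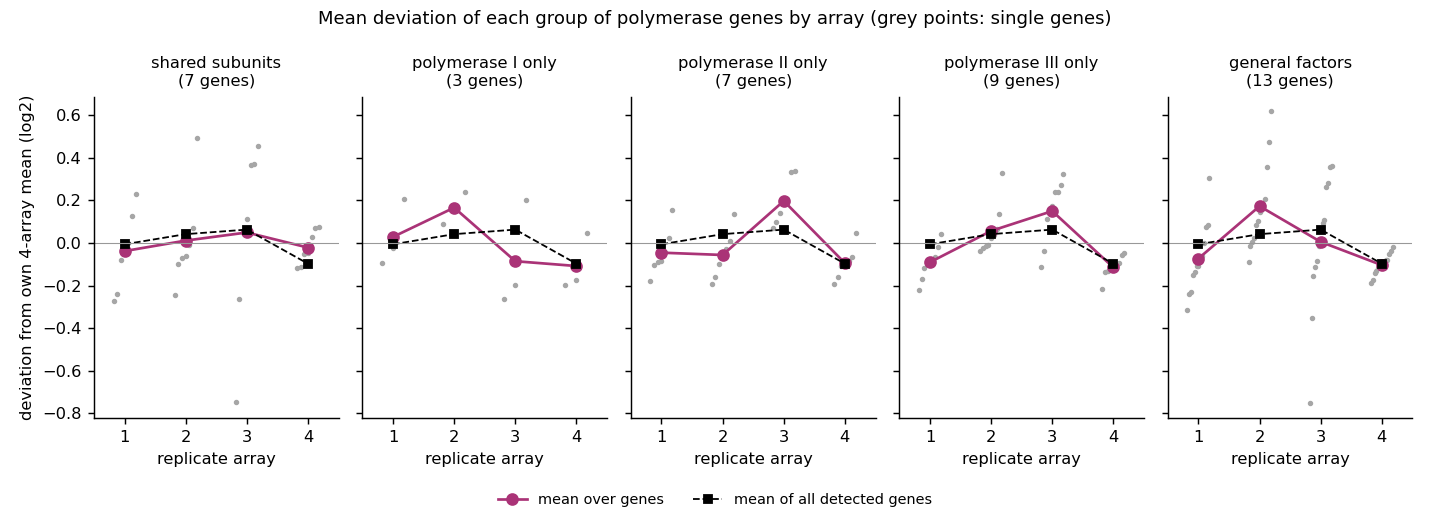
Mean deviation of each group of genes (line with circles, log2) on the 4 replicate arrays, with single genes as grey points and the mean of all detected genes as a dashed line. The polymerase II subunits peak on replicate 3 at 0.20 and the general factors on replicate 2 at 0.17, whereas the shared subunits stay between -0.038 and 0.049.

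Replicates 1 to 4 were the highest array in 2, 13, 23 and 1 of the 39 genes, beside 20.7%, 25.3%, 48.8% and 5.22% of all detected genes. They were the lowest in 14, 5, 8 and 12 genes, beside 27.1%, 14.3%, 23.3% and 35.4%. Replicate 3 was highest in 14 of 19 specific subunits, in 4 of 7 shared subunits and in 5 of 13 general factors, while replicate 2 was highest in 8 of the 13 factors. The counts for replicates 3 and 4 depended on scaling. With the processed signal replicate 3 was highest in 19 of 39 genes, beside 39.7% of all genes, and after quantile normalization in 16, beside 38.3%. For the specific subunits the counts were then 12 and 9 of 19. Replicate 4 was lowest in 4 of 39 genes with the processed signal, beside 12.1% of all genes, in 6 after quantile normalization, beside 15.5%, and in 0 with centring over all probes, beside 8.47%.

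**Figure D4:**
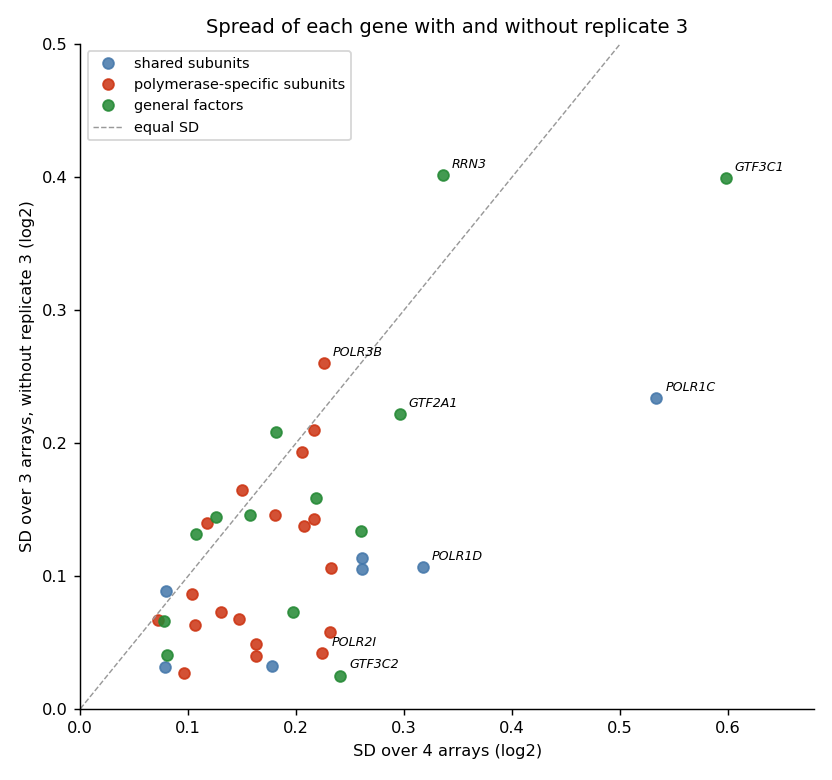
SD of each of the 39 genes over the 4 arrays (horizontal axis, log2) against its SD over the 3 arrays left without replicate 3 (vertical axis, log2), coloured by group, with a dashed line of equal SD. POLR1C falls from 0.53 to 0.23 and GTF3C2 from 0.24 to 0.025, whereas RRN3 rises from 0.34 to 0.40.

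Base composition of the probes varied together with the arrays. Over the 57 detected probes of these genes, the GC content of the probe correlated with its deviation on replicate 3 at r = -0.28 (Spearman's rho -0.23), and over all 25661 detected probes at r = -0.38 (rho -0.44). On replicate 1 the values were 0.26 (rho 0.22) and 0.38 (rho 0.44). On replicate 2 they were 0.011 (rho -0.026) and 0.071 (rho 0.094), and on replicate 4 0.37 (rho 0.25) and 0.14 (rho 0.17). The points of such a correlation share arrays and labelling reactions and are not independent. Of the 22 probes of these genes with less than 40% GC, 18 lay above their own mean on replicate 3, beside 84.5% of all detected probes in this range, and 0 on replicate 4, beside 12.5%. Of the 10 probes with 50% GC or more, 5 did so on replicate 3, beside 40% of all detected probes in this range, and 4 on replicate 4, beside 28.3%. On replicate 4 the median of all detected probes was below 0 in every range of GC content on this scale. Some probes did not follow this. The POLR2L probe has 55.0% GC and was highest on replicate 3, and the POLR1C junction probe with 45.0% lay 0.75 below its mean there. The part of base composition in the differences between arrays was not tested.

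**Figure D5:**
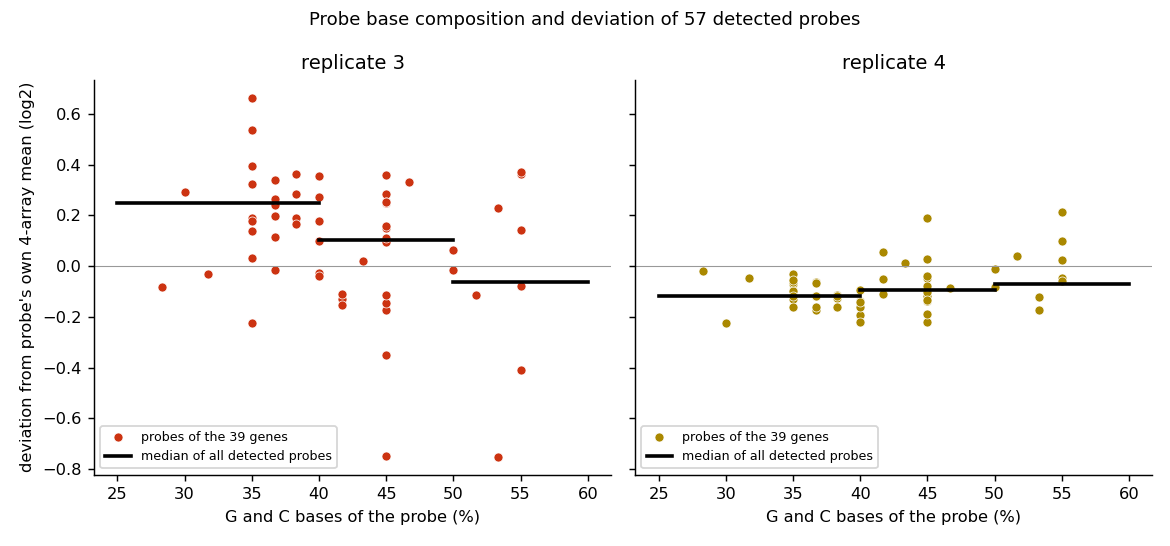
GC content of each of the 57 detected probes of the polymerase genes (horizontal axis, %) against its deviation from its own mean over the 4 arrays (vertical axis, log2) on replicates 3 and 4. Thick black lines give the median of all detected probes with less than 40%, 40% to 50%, and 50% GC or more, which on replicate 3 runs from 0.25 over 0.10 to -0.063.

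Other genes of the transcription machinery, such as further subunits, factors of TFIID, TFIIH and TFIIIB and elongation factors, were counted in the same way. Of 62 such genes 59 were found by symbol, and 57 were detected on all 4 arrays, beside 54.2% of all gene names. The exceptions were POLR2M, a subunit of a form of polymerase II, and TBPL2, a TBP paralog known from oocytes, both well above background on no array. POLR2J3, GTF2H2 and GTF2A1L were not found by symbol. The 57 detected genes had a median SD of 0.18, beside 0.20 over all detected genes. Of these, 20 spanned more than 1.4-fold, beside 43.1%, and in 7 a single array stood apart, beside 7.2%.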

How the data were processed

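Total RNA of the 4 bafilomycin A1 samples was labelled with a low-input kit and hybridized on 1-colour Agilent arrays. For each array the authors deposited the scanner output of Agilent Feature Extraction 10.7.3.1 (submitters' processing notes), which holds spot intensity on a linear scale, background-subtracted but not normalized between arrays. Coordinates of probes refer to GRCh37, per the file headers. The 3 untreated samples were not analysed here.

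Following the methods, background-subtracted signals were put on a log2 scale, centred on the array median and summarized per gene by the median probe. Beyond the methods, control spots, spots with a feature outlier flag and signals at or below 0 were left out, spots of a probe were averaged, the array median was taken over non-control probes, and a probe entered only with a value on all 4 arrays. Detection of a probe required a well-above-background flag in over 50% of its spots. GC correlations used probes detected on all 4 arrays. SDs and Dixon's ratio (critical value for 4 arrays, passed by chance in about 5% of genes) describe the spread between replicates, which the series text calls biological. Both were checked on simulated data. No pair of arrays held identical values.

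Alternatives were the processed signal scaled to its 75th percentile, normexp (offset 50) with quantile normalization, other centring, probe summaries and detection rules, outlier spots kept, and leaving out each array. Values on every array are given for shared subunits, the 2 largest subunits of each polymerase, POLR3G, POLR3GL, TBP, UBTF and RRN3, genes with an array apart, and the 5 genes each with the largest and smallest SD. The genes and the lists were chosen with earlier results of these data known. Symbols of all 39 genes were found in a RefSeq table. Python 3.11.15, pandas 2.3.3, numpy 2.4.6, scipy 1.17.1, matplotlib 3.10.9, R 4.3.3 and limma 3.58.1 were used.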

Additional observations from a re-analysis of the deposited data

Results flagged for a closer look

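In 4 of 51 genes and group means examined, a single array stood apart in Dixon's ratio. Chance alone marks about 5% of cases, and 7.2% of all detected genes were marked. In each case this was replicate 3. For POLR2F the ratio was 0.855, and replicate 3 was low. POLR2I reached 0.851 and GTF3C2 0.911, and in both replicate 3 was high. The mean over the 7 subunits particular to polymerase II reached 0.832, with replicate 3 high, and this mean includes POLR2I. Group means are built from the same genes, so the 7.2% applies to single genes only. No gene stayed marked with the processed signal, quantile normalization or centring over all probes. The ratio of the polymerase II mean was 0.458, 0.283 and 0.503 in these settings.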

How the results depend on the processing

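All 39 genes stayed detected in every setting but 2, in which 36 (every probe required) and 38 (background outliers, below) did. With the processed signal, 10 genes spanned more than 1.4-fold, 0 had an array apart, and the SD of the group mean was 0.064 for shared, 0.054 for polymerase III and 0.039 for polymerase-specific subunits and 0.020 for all 39 genes. After normexp and quantile normalization, 3 genes spanned more than 1.4-fold, 0 had an array apart and the median SD was 0.12. The SDs of group means were then 0.044 (shared), 0.057 (polymerase I), 0.043 (polymerase II), 0.030 (polymerase III), 0.014 (polymerase-specific) and 0.026 (all). Centring on the median over all probes left 0 genes with an array apart and gave 0.11 for shared, 0.081 for polymerase I and 0.11 for all. Probes well above background alone gave 0.060 for shared subunits and 0.086 for polymerase I, and the mean over probes 0.094 for shared subunits. The causes were not tested. Leaving out each array in turn, 3 to 15 genes spanned more than 1.4-fold, lowest without replicate 3, and the median SD ran from 0.11 to 0.20. The SD of the group mean ran from 0.025 to 0.046 (shared), 0.073 to 0.15 (polymerase I), 0.026 to 0.16 (polymerase II), 0.093 to 0.15 (polymerase III), 0.070 to 0.12 (polymerase-specific), 0.056 to 0.15 (general factors) and 0.077 to 0.095 (all). The SD of the difference between shared and specific subunits ran from 0.049 to 0.084. Dixon's ratio was not computed over 3 arrays. The SD of single genes changed by less than the SD of its values with each array left out in 378 cases and by more in 89, of which 26 came with quantile normalization and 24 without replicate 3. Mean levels all shifted in the 3 settings with another zero of the scale (117 values), as this zero fixes them. Leaving out spots with an outlying local background too, an alternative chosen after seeing the data, removed the value of POLR3F. No paired analysis was possible because the untreated samples that share replicate numbers were not analysed here. Probes near background, such as those of RRN3 or the second POLR1A probe, limit what can be read from these genes.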

Other observations

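Some of the other transcription genes counted above also varied widely between the arrays. They were chosen after their values were seen. The genes named below each have 1 probe, so no second probe could be set beside it. Their values under other scalings were not examined. MAF1, a repressor of RNA polymerase III, had levels of 5.14, 5.35, 4.28 and 4.78 on replicates 1 to 4 (SD 0.47), lowest on replicate 3. GTF2H4, a subunit of TFIIH, had levels of 2.90, 2.93, 1.46 and 2.44 (SD 0.69), also lowest on replicate 3. TAF2, a TFIID subunit, ran the other way with 2.60, 3.13, 4.30 and 3.08 (SD 0.72), highest on replicate 3.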
